A study of Drosophila melanogaster with 6 samples.

Results

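The genes of the proteasome were described at the chromatin sites of Dwg in Drosophila S2R+ cells. They were chosen by symbol, as the protein-coding genes named Prosalpha, Prosbeta, Rpn or Rpt with a number. Earlier results of these data were known when this choice was made. The rule found 48 of the 13945 protein-coding genes on the 6 chromosome arms. They comprise 14 subunits of the core particle, 18 of the regulatory particle and 16 paralogues with an R or T suffix, which are named testis paralogues here. Core and regulatory particle together are called the 32 standard subunits. S2R+ is a cell line derived from Drosophila embryos, and no mutation or treatment is given in the labels. The cells expressed Flag-tagged Dwg, a zinc finger protein also known as Zw5 that is bound at insulators, so the sites are those of the tagged protein. Chromatin was cut enzymatically and sequenced as Flag-Dwg ChIP, IgG control and input, with 2 libraries each. In the labels of the input libraries the antibody field holds dwg1, in conflict with the titles, which were used for the grouping.

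The data used are 2 lists of peak summits, the single bases at which peaks reach their maximum, 1 list against IgG and 1 against input. Each summit has a score, the −log10 of the peak caller's q-value. Against IgG there are 10950 summits, whose scores reach 905.1 around a median of 12.9. Against input there are 12971, whose scores reach 2448.4 around a median of 20.9. Neither list gives a value per library. The depth behind a score is therefore unknown, no replicate error can be given, and differences between scores were not tested. A member is said to have a summit where at least 1 lies in the gene or within 1000 bp around it, and unless stated otherwise the list is the one against IgG. RNA was not measured, so the symbols say nothing of which members these cells express.

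The proteasome degrades proteins that carry ubiquitin chains. Its core particle is a barrel of stacked rings, with outer rings of alpha subunits that gate the entrance and inner rings of beta subunits that hold the proteolytic sites. The regulatory particle caps the barrel: its base contains the Rpt ATPases, which unfold substrates, and its lid holds the deubiquitinase Rpn11. In flies many subunits have a second gene copy expressed in the male germline. Insulator proteins such as Dwg are known for binding close to gene starts in the compact fly genome, where neighbouring genes often share a promoter region.

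Summits lay around most standard subunits and around few paralogues. Of the 32 standard subunits, 27 (84.4%) had a summit, and the median of their highest scores was 26.1. The core particle gave 12 of 14 (85.7%) and the regulatory particle 15 of 18 (83.3%), with medians of 63.1 and 19.1. Of the 16 testis paralogues, 3 (18.8%) had a summit. Among all protein-coding genes the share was 52.1% and the median highest score 29.7. The share of the standard subunits was above this background, and that of the paralogues below it. The median score of the standard subunits lay below that of all genes against IgG but above it against input (93.0 against 59.7). Against input 27 standard subunits and 2 paralogues had a summit, beside 55.5% of all genes. The member list had no summit in either list at Prosalpha1, Prosalpha5, Rpn6, Rpt5, Rpt6 and 13 paralogues.

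**Figure D1:**
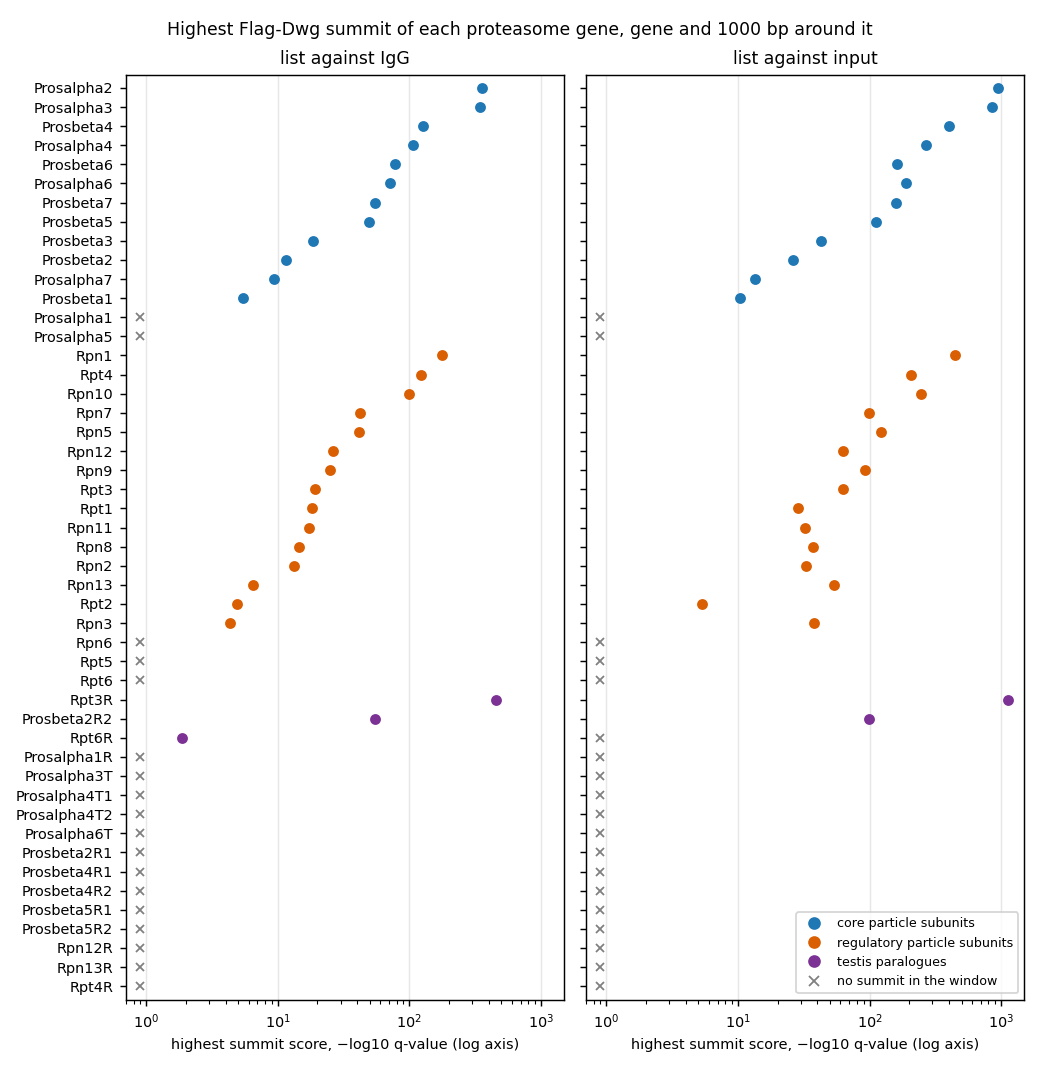
Highest summit score of each of the 48 genes in the list against IgG (left) and against input (right), as −log10 q-value on a log axis, with a cross for a gene without a summit. The highest member score against IgG is that of the paralogue Rpt3R (453.8), and 13 of the 16 paralogues have no summit in either list.

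The windows of the standard subunits were more crowded than those of the paralogues, a split of the genes that was chosen after seeing the data. Of the standard subunits only 5 (15.6%) had no start of another protein-coding gene in their window, against 11 of 16 paralogues (68.8%) and 37.7% of all genes. Among genes with no other start in the window, 4 of 5 standard subunits and 1 of 11 paralogues had a summit, beside 31.3% of all such genes. With 1 other start the counts were 12 of 15 standard subunits and 0 of 1 paralogue, beside 59.7%. With 2 or more other starts they were 11 of 12 standard subunits and 2 of 4 paralogues, beside 72.9%. The standard subunits lay above the background in each class at this setting. In the class with 2 or more other starts this turned at other settings, with 58.3% against 61.9% of all such genes at a score of at least 10, 50% against 50.4% at a score of at least 20, 33.3% against 51.5% in the gene body and 25% against 49.9% by the nearest start. In the class with 1 other start the standard subunits were also below all such genes by the nearest start, with 40% against 46.3%. Gene length differed little between both sets: the standard subunits had a median length of 1390 bp and the paralogues 1282 bp, against 2166 bp for all genes.

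Most of these summits lay nearest to a neighbour's start rather than to the member's own. The highest summit was nearest to the member's own start in 6 of the 27 standard subunits with a summit (22.2%), whereas it was so in 4176 of 7259 genes overall (57.5%). Crowding of the windows differs between these sets, as given above, and its part in these shares was not tested. Counted by gene, 13 of 32 standard subunits and 2 of 16 paralogues had the nearest start of some summit, beside 42.3% of all genes, so by this rule the standard subunits lay near the background. The rule sets no limit on distance. At 1 of these 2 paralogues the highest such summit scored 7.55 and lay outside the window of the gene. Within 500 bp of a start of their own, 21 of 32 standard subunits and 2 of 16 paralogues had a summit, beside 40.1%. Of the 56 summits around standard subunits, 17 lay inside the subunit gene itself, 32 inside another protein-coding gene only and 7 in none. Relative to the subunit gene, 21 were upstream, 18 downstream, 9 in coding sequence, 6 in a 5′ UTR, 1 in a 3′ UTR and 1 in an intron. A summit against input lay within 100 bp of 52 of these 56.

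**Figure D2:**
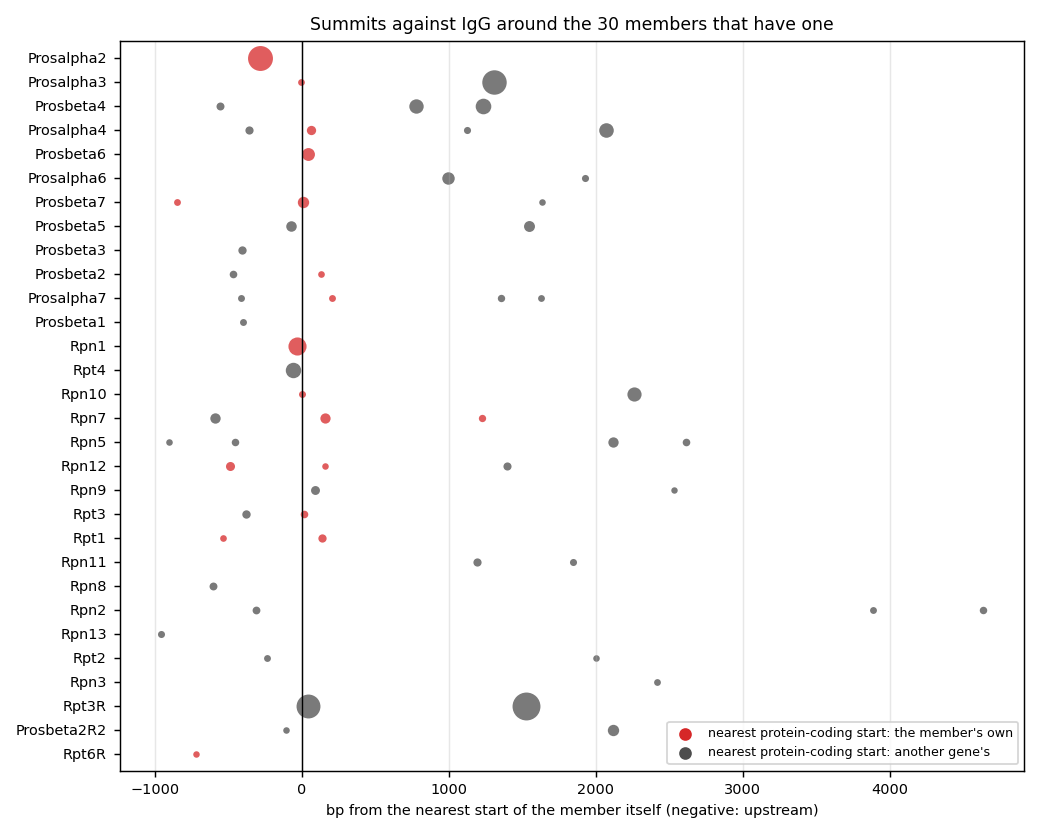
Distance in bp of each summit against IgG from the nearest start of the member it was counted for, with points scaled by score and coloured by whether the nearest protein-coding start is the member's own or another gene's. Prosalpha2 (−281 bp) and Rpn1 (−29 bp) carry high summits nearest to their own start, and those of Prosalpha3, Prosbeta4, Rpn10 and Rpt3R lie nearest to another gene's.

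In the alpha rings 5 of 7 genes had a summit. Prosalpha2 had a single summit against IgG with a score of 357.1, rank 98 of the list, and 938.9 against input. It lay 281 bp upstream of the gene (FBgn0086134, chr3R:12431321-12432556 of dm6, plus strand), in the coding sequence of the next gene, CG5245. Prosalpha3 had a summit of 342.3 that lay 10 bp from the start of CG10543, beyond the end of Prosalpha3. At its own start, 8 bp upstream, the score was 4.17 against IgG and 29.7 against input. Prosalpha4 (FBgn0004066, chrX:16276270-16277587, plus strand) had 4 summits. The highest (106.2) lay 12 bp from the start of eas, an ethanolamine kinase gene downstream, and the summit in the 5′ UTR of Prosalpha4, 62 bp into the gene, scored 29.0. Another, of 17.2, lay 6 bp from the start of kat80, which runs the other way, and the last (6.85, in the 3′ UTR) had no partner against input. Prosalpha6 (FBgn0250843, chr2L:10221351-10222546, plus strand) had its highest summit (71.1) in coding sequence 994 bp from the start, nearest to the start of Bcs1. Prosalpha7 had 4 summits between 4.52 and 9.27, the highest 3 bp from the start of Orc6, a subunit of the origin recognition complex. Prosalpha1 and Prosalpha5 had none. Of the 32-base words in the window of Prosalpha1, 87% occur elsewhere on the arms too. The authors kept unique reads, and the part of this in the missing summit was not tested. For Prosalpha5 the nearest summit lay 5453 bp from its promoter DRE (a promoter motif described below).

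All 7 beta subunit genes had a summit, with a median highest score of 49.4. Those of the proteolytic subunits Prosbeta1, Prosbeta2 and Prosbeta5 differed in height and place. Prosbeta1 had 1 summit of 5.42, 396 bp upstream and inside Rrp42, an exosome subunit gene. Prosbeta2 had 11.6 inside mRpL39, a mitochondrial ribosomal protein gene, and 3.38 in its own coding sequence. Prosbeta5 had 43.9 between its start and that of dgo, 71 bp upstream, and 49.4 downstream in Lsm10, a gene of the U7 snRNP. Among the other beta subunits, Prosbeta6 and Prosbeta7 had their highest summit at their own start. Prosbeta6 (FBgn0002284, chr3L:16609400-16610418, minus strand) scored 78.0 against IgG and 160.1 against input, in the 5′ UTR 40 bp from its start. Prosbeta7 (FBgn0250746, chr3R:5357012-5358364, minus strand) scored 55.1 and 157.5, in the 5′ UTR 6 bp from one of its starts. Prosbeta4 (FBgn0032596, chr2L:16731180-16732133, minus strand) had 125.7 downstream, 139 bp from the start of CG17996, and 103.0 in its own coding sequence. The latter had no partner within 100 bp against input, which the former had with 400.6. Prosbeta3 had 1 summit of 18.4, in the 5′ UTR of Iru.

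In the base of the regulatory particle 8 of 10 genes had a summit, with a median highest score of 18.6. Rpn1, a large scaffold subunit that binds ubiquitin and shuttle factors, had a single summit of 177.3 (rank 381), 441.7 against input. It lay 29 bp upstream of the gene (FBgn0028695, chr3L:19915051-19918160, plus strand), with no other gene's start in the window. Rpt4 (FBgn0028685, chrX:6289470-6291245, minus strand) had a single summit of 122.1, 61 bp upstream of its start and 3 bp from the start of mldr, the gene on the other side. The remaining ATPase genes were lower. Rpt3 had 19.1 at 2 bp from the start of CG11122 and 11.2 in its own 5′ UTR, Rpt1 had 18.0 in coding sequence 139 bp from its start, and Rpt2 had no score above 4.90. Rpt5 and Rpt6 had no summit. Of the ubiquitin receptors, Rpn10 (FBgn0015283, chr3L:21537000-21538582, plus strand) had 99.5 in the coding sequence of COX8, beyond its end, and 5.81 at 5 bp from its own start. Rpn13 had 6.48 against IgG, 958 bp upstream, but 53.6 against input at a position 212 bp upstream that had no partner against IgG. Rpn2, the other scaffold subunit, had 3 summits, the highest (13.3) in the 5′ UTR of Slbp, the histone mRNA binding protein gene.

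For a core and a base gene, the window of the highest summit nearest to the member's own start is shown. The summit base is in capitals, and the scores of these genes rest on these sites. The Prosalpha2 summit lies in the coding sequence of CG5245. Each window was read from the strand of the member gene and ends where the 5′ UTR begins or 50 bp from the summit. Prosalpha2 is chr3R:12430990-12431090 and Rpn1 is chr3L:19914972-19915050, both on the plus strand of dm6.
Prosalpha2: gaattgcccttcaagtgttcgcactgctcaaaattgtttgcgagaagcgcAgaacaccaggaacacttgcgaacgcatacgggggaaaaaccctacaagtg
Rpn1: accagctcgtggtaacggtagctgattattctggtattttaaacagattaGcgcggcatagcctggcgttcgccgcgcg

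Summits in 5′ UTRs are given in shorter windows, 14 bp to each side. Those of Prosbeta6 (chr3L:16610364-16610392, minus strand) and Prosbeta7 (chr3R:5358155-5358183, minus strand) lie in the 5′ UTR of the subunit itself. That of Rpt4 (chrX:6291292-6291320, read from the minus strand) lies in the 5′ UTR of mldr.
Prosbeta6: gccgcttgcaaactTgcaaatcatttcgt
Prosbeta7: aagtctgttcacacTgcgctgactcttga
Rpt4: cacacgctgcacttAgccagtgcacgcac

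In the lid 7 of 8 genes had a summit, with a median highest score of 24.8. Rpn11, the deubiquitinase, had 17.3 in its coding sequence, nearest to the start of Nepl3. Its partner Rpn8 had 14.4 in an intron, 19 bp from a start of Slik. Of the other lid subunits, which are structural, Rpn7 (FBgn0028688, chr3R:22460662-22462054, minus strand) had 41.9 in the coding sequence of AP-2mu, 40.5 in its own coding sequence 160 bp from its start and 8.72 further inside. Rpn5 (FBgn0028690, chr3R:5789493-5791569, plus strand) had 4 summits, with the highest (41.4) downstream near Hpf1 and the next 2 of 11.5 and 10.8 in Hpf1 and in the 5′ UTR of Hat1. Rpn12 (FBgn0028693, chr3L:16583028-16584022, plus strand) had 26.1 at 489 bp upstream, nearest to its own start. Rpn9 (FBgn0028691, chr3R:23731375-23733462, minus strand) had 24.8 in its 5′ UTR, 90 bp from its start. Rpn3 had only 4.33 against IgG and 37.6 against input, near CG10492. Rpn6 had none.

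Fewer members were counted at higher scores. With a score of at least 20, 15 of 32 standard subunits and 2 of 16 paralogues had a summit, beside 31.8% of all genes. The 15 were 8 of 14 core subunits (57.1%) and 7 of 18 regulatory subunits (38.9%).

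The summits of the paralogues were few and, apart from a low one at Rpt6R, nearest to the starts of other genes. Rpt3R, a copy of the ATPase gene Rpt3 (Rpt3R is FBgn0037742, chr3R:9754735-9756510, minus strand), held the highest score of any member. Its summit of 453.8 (rank 55, 1132 against input) lay downstream of the gene, 3 bp from the start of Tti1. A second, of 326.6 (rank 127, 696.8 against input), lay in an intron 41 bp from the Rpt3R start and 22 bp from the start of Alg12, a glycosylation enzyme gene. Prosbeta2R2 (FBgn0037296, chr3R:5217751-5219528, minus strand) had 55.2 downstream, 48 bp from the start of cno, and 2.22 at 22 bp from the start of CG1116. Rpt6R (FBgn0039788, chr3R:30582198-30583697, minus strand) had 1.87 at 722 bp upstream, with its own start nearest, and none against input. The other 13 were Prosalpha1R, Prosalpha3T, Prosalpha4T1, Prosalpha4T2, Prosalpha6T, Prosbeta2R1, Prosbeta4R1, Prosbeta4R2, Prosbeta5R1, Prosbeta5R2, Rpn12R, Rpn13R and Rpt4R, without a summit in either list. For Prosalpha1R 99.1% of the 32-base words of the window occur elsewhere on the arms too. Leaving out it and Prosalpha1, an alternative chosen after seeing the data, gave 30 of 46 members with a summit, 12 of 13 core subunits and 3 of 15 paralogues.

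Set beside the subunit they copy, the 16 paralogues belong to 12 standard subunits, 10 of which had a summit. In 12 pairs the subunit had a summit and the paralogue none. In 2 pairs both had one (Rpt3R with Rpt3 and Prosbeta2R2 with Prosbeta2). In 1 pair only the paralogue had one (Rpt6R, at 1.87), and in 1 pair, Prosalpha1R with Prosalpha1, neither did. Differences in crowding go with these pairs, as given above, and their part in the counts was not tested.

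The sites of Rpt3R are printed because of their scores, with the summit base in capitals and read from the minus strand, on which the gene lies. The first is chr3R:9754687-9754734 and the second chr3R:9756419-9756490.
Rpt3R, downstream: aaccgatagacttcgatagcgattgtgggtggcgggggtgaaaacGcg
Rpt3R, intron: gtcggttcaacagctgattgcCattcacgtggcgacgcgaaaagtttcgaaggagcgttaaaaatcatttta
An E-box (CAGCTG) lies 30 bp from the first summit, outside the stretch printed here, and 8 bp from the second. The first also has 2 matches to CGATA, a motif known for the insulator protein BEAF-32, at 30 bp and 40 bp.

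Divergent neighbours were frequent among the standard subunits. In 19 of 32 (59.4%) another protein-coding gene started within 1000 bp upstream and ran the other way, as in 35.2% of all genes and 3 of 16 paralogues. Of these 19, 12 (63.2%) had a summit in the first 500 bp inside the neighbour, 5 (26.3%) in the first 500 bp inside the subunit gene and 2 (10.5%) between the starts. Among all 4914 genes with such a neighbour the shares were 35.3%, 35.8% and 17.4%. In 7 of the 19 a summit lay inside the neighbour and not inside the subunit gene, in 0 the reverse, and in 5 on both sides, counting both stretches of 500 bp. Over all genes the first and second of these counts were 976 and 1001. A pair can enter the counts over all genes from both sides. The near equality of the gene and neighbour values over all genes follows largely from this. Against input, 11 of the 19 (57.9%) had a summit inside the neighbour and 6 (31.6%) inside the subunit gene, beside 37.5% and 37.8% of all such genes. In that list a summit lay inside the neighbour only in 6 of the 19 and inside the subunit gene only in 1.

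The 12 neighbours with a summit inside were kat80, CG1671, Rrp42, mRpL39, Iru, Nubp1, Slbp, Hat1, AP-2mu, CG13599, CG11122 and mldr. The scores there ran from 4.90 (CG13599, beside Rpt2) to 122.1 (mldr, beside Rpt4). Subunits with a summit also inside their own gene were Prosalpha4 (29.0, against 17.2 in kat80), Prosalpha7 (5.08, against 5.37 in CG1671), Prosbeta2 (3.38, against 11.6 in mRpL39), Rpn7 (40.5, against 41.9 in AP-2mu) and Rpt3 (11.2, against 19.1 in CG11122). The neighbour's score was the higher one in 4 of these 5, and it was lower at kat80. At Prosalpha7 and Rpn7 the scores on both sides were close, and the summit in CG1671 had no partner against input. A summit between the starts was found at Prosalpha3 with dgt3 (4.17) and Prosbeta5 with dgo (43.9). Prosalpha1 with CG18853, Prosalpha6 with Npc1a, Rpn3 with l(2)37Bb, Rpn13 with CtsL1 and Rpt5 with RanBP3 had none in these places.

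**Figure D3:**
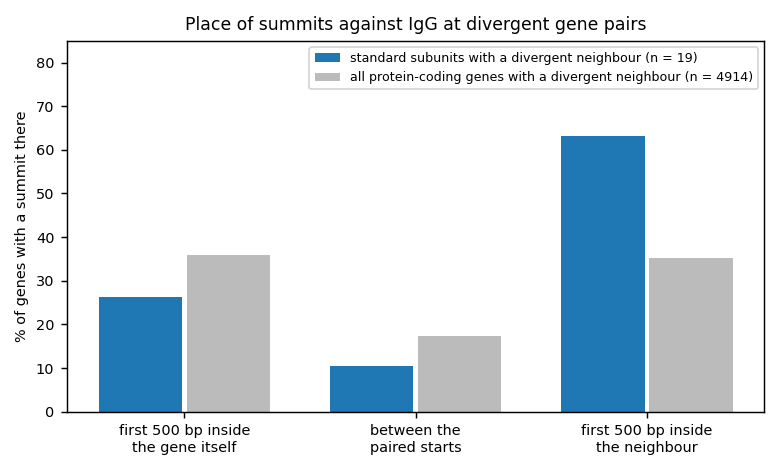
Share of genes (%) with a summit against IgG in the first 500 bp of the gene, between the paired starts, and in the first 500 bp of the divergent neighbour, for 19 standard subunits and 4914 protein-coding genes. The standard subunits are at 26.3%, 10.5% and 63.2%, and all genes at 35.8%, 17.4% and 35.3%. Over all genes a pair can enter from both sides, which makes the first and last of these shares nearly equal.

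Promoter motifs also set the standard subunits beside the paralogues. The DNA replication-related element, or DRE, which DREF binds, was searched as TATCGATA on both strands from 250 bp before to 50 bp after the outermost start. It was found in 12 of 32 standard subunits (37.5%), 0 of 16 paralogues and 9.37% of all protein-coding genes. Core promoter motif 1 was searched by its core GGTCACAC, found in 5 of 32 (15.6%), 0 of 16 and 7.71%. The motif CGATA, which every DRE contains, was in 27 of 32 (84.4%), 8 of 16 and 47.5%. The antioxidant response element, bound by the Nrf2 homologue encoded by cnc, was searched as TGACNNNGC and found in 5 of 32 (15.6%), 1 of 16 and 8.64%. Some of these matches overlap motif 1. The E-box was in 1 of 32, 1 of 16 and 17.7%, the GAGA motif (GAGAG) in 3 of 32, 6 of 16 and 29.8%, and the TATA box (TATAAA) in 13 of 32, 5 of 16 and 45.9%. A match is a run of letters, not a measured binding site.

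**Figure D4:**
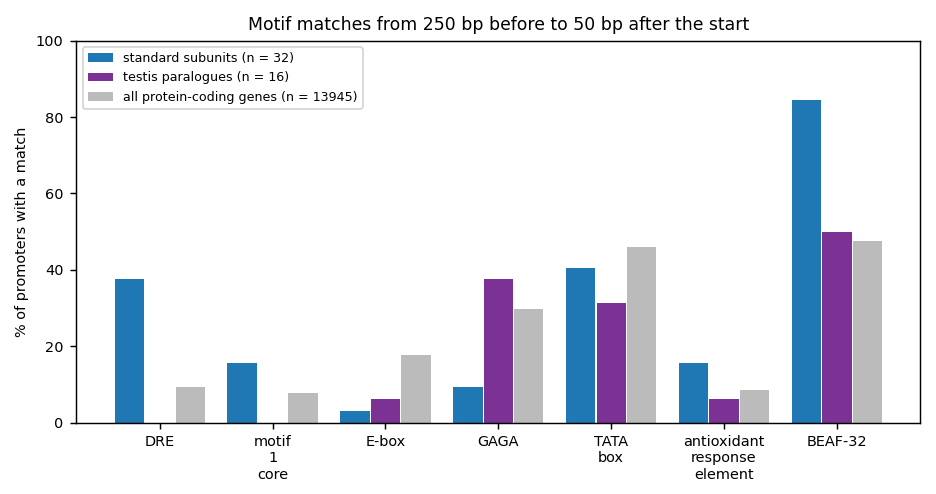
Share of promoters (%) with a match to each of 7 motifs from 250 bp before to 50 bp after the start, for 32 standard subunits, 16 testis paralogues and 13945 protein-coding genes. The DRE is in 37.5% of standard subunits, in no paralogue and in 9.37% of all genes.

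The DRE sites of 8 of the 12 subunits are printed because they are the promoter feature of the standard subunits furthest above all genes among the motifs of 8 letters, with the motif in capitals and 11 bases to each side, from the strand of the gene.
Prosalpha6: cccgaatccctTATCGATAcccgatacaca
Prosbeta2: ccatgaatataTATCGATAcaatatcgatt
Prosbeta6: gtatgtataccTATCGATAacgtttaagca
Rpn3: tgttatcggagTATCGATAtcgaaaaggct
Rpn7: gcggtataattTATCGATAattttggggtc
Rpn9: gcccggttaaaTATCGATAttctcgcggat
Rpn12: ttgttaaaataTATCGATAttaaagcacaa
Rpt5: atcgctgtcacTATCGATAagcgccggcga
The motif 1 sites are shown in the same way because the letters next to the core can be compared by eye.
Prosalpha2: attcagcattcGGTCACACtgccgcccaat
Prosalpha4: acccatgctgcGGTCACACtgcggcatttc
Prosbeta3: tgacgcggcctGGTCACACtgaaagctaat
Rpn1: gttcgccgcgcGGTCACACtgcaaaaagcg
Rpn7: gataattttggGGTCACACtggtagtacat

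The distance from a promoter DRE to a summit varied widely. Over the 12 subunits with a promoter DRE the distance to the nearest summit had a median of 278 bp and ranged from 60 to 5453 bp, with 3 within 100 bp and 0 within 50 bp. The shortest was at Rpn9 (60 bp), followed by Prosbeta6 (80 bp) and Prosalpha3 (84 bp). The longest were at Prosalpha5 (5453 bp) and Rpt5 (5122 bp), which had no summit in the window. Against input the median was 215 bp, with 4 within 100 bp and 1 within 50 bp, since the summit of 53.6 at Rpn13 that has no partner against IgG lies in its DRE. Over the 5 subunits with motif 1 the median was 138 bp, with Prosalpha4 (26 bp) and Rpn1 (31 bp) within 50 bp. In the windows of 50 bp to each side of the 56 summits around standard subunits, the DRE was present in 1 (1.79%, against 0.731% of all summits), motif 1 in 2 (3.57%, against 2.25%), CGATA in 8 (14.3%, against 12.9%), the E-box in 4 (7.14%, against 9.88%) and GAGA in 6 (10.7%, against 14.9%). In windows of 100 bp to each side the DRE was present in 5 of 56 (8.93%, against 1.54% of all summits), and against input, in windows of 50 bp to each side, in 2 of 61 (3.28%, against 0.632%). These shares rest on few windows.

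Other genes of the ubiquitin-proteasome system also had summits. Of 22 listed symbols 21 matched the annotation, and 19 had a summit with a median highest score of 46.2 (20 against input). The shares of all genes are 52.1% against IgG, with a median of 29.7, and 55.5% against input. The list was made by hand with earlier results known. Sem1, the small lid subunit not covered by the symbol rule, had 48.3 at 34 bp upstream of its start. Pomp, the assembly chaperone of the core, had 14.6. The gene of the transcription factor cnc, a regulator of proteasome genes, had 58.0 in its 5′ UTR 22 bp from a start. Its dimer partner gene maf-S had 323.5, at 26 bp from the start of CG11110, and its inhibitor gene Keap1 had 85.1. Of the proteasome-bound deubiquitinases, Usp14 had 287.8, 113 bp from the start of l(2)SH0834, and Uch-L5 had 22.8. The polyubiquitin gene Ubi-p63E had 269, nearest to Ccz1, and the shuttle factor gene rngo had 215.3 in its own 5′ UTR. Uba1, the ubiquitin-activating enzyme gene, had 19.2. Ubqn and RpS27A had none.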

How the data were processed

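Chromatin from Flag-Dwg ChIP, IgG control and input samples was sequenced, 2 libraries each. According to the submitters' processing notes and the study's methods, the authors trimmed reads with Trim Galore 0.6.4, mapped them to dm6 with bowtie2 2.3.5.1, filtered for unique reads (Samtools 1.6) and ran MACS2 2.2.6 on paired reads. The score column of the deposited summit lists is the authors' −log10 of the q-value. The sources used here do not say whether replicates were pooled before calling. HOMER 4.11 is also named.

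The members and lists were chosen with earlier results of these data known. Named were all members, neighbours with the nearest start, divergent neighbours and a list of 22 pathway genes. Genes and places came from Ensembl release 115 and sequence from the NCBI copy of dm6. A summit 100 bp or less away in the other list counted as shared. Counts and shares are descriptions, with no test. Protein identity between paralogues was not analysed here. The rules were tested on simulated data. Alternatives were other score minimums, windows, start rules, the list against input and other gene backgrounds. Calculations used Python 3.11.15, NumPy 2.4.6 and matplotlib 3.10.9. Some items are not reported here.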

Additional observations from a re-analysis of the deposited data

How the results depend on the processing

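Depth is unknown and scores have no replicate error, so no limit on detection can be given, and a gene without a summit is one without a called peak. No paired analysis was possible because values of single replicates are not part of the lists, and leaving out a library was not run for the same reason. The comparison of paralogue proteins was not run. Of the values under other settings, 72 stayed close to the main ones and 27 moved. With a score of at least 20 the count was 17 for all members (35.4%) and 7 for the regulatory particle (38.9%), beside 31.8% of all genes. Counting only summits in the gene body gave 16 for all members, 7 core, 8 regulatory and 1 paralogue. This puts all members (33.3%) below all genes (36.7%) and the standard subunits (46.9%) above them. The nearest-start rule gave 15 for all members (31.2%), 7 core (50%) and 6 regulatory (33.3%), beside 42.3% of all genes. By that rule all members and the regulatory particle were below all genes and the core particle above them. Median highest scores moved in the gene body (21.4 for all members, 327 for paralogues), within 500 bp of a start (19.1 for all members, 23.7 for core, 164 for paralogues), within 500 bp around the gene (255 for paralogues) and within 2000 bp (103 for core, 29.6 for regulatory). The paralogue values rest on very few genes: 1 for 327 and 2 each for 164 and 255. Distances and divergent pairs against input were added after seeing the data.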
